A study of Glycine max with 4 samples.

Results

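The 6 soybean gene models described here are homologues of 3 master regulators of seed maturation, taken from 66210 gene models counted in each library. The choice was by identifier: Glyma07g39820 and Glyma17g00950 as LEC1 homologues, Glyma08g47240 and Glyma18g38490 as ABI3 homologues, and Glyma16g05480 and Glyma19g27340 as FUS3 homologues. All 6 were present in all 4 count files. The family names came with the choice of members, because the count files hold identifiers only. Read by the usual soybean scheme, the identifiers place the LEC1 copies on chromosomes 7 and 17, the ABI3 copies on chromosomes 8 and 18, and the FUS3 copies on chromosomes 16 and 19. RefSeq's table for Glycine_max_v4.0 lists LEC1-A on chromosome 7, LEC1-B on chromosome 17, ABI3-1 on chromosome 8 and ABI3-2 on chromosome 18, but no identifier links these entries to the gene models. The table lists 0 genes with a FUS3 symbol.

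The libraries came from the cultivar Williams 82, grown in a greenhouse, and the labels name no mutant, transgene or treatment in any of them. Stage B1 was mid-maturation: cotyledons dissected free of seed coat and axis, completely green, with a pair weighing 150 to 250 mg. Stage AA1 was late maturation: cotyledons dissected in the same way, completely yellow, with a pair weighing 200 to 350 mg. Dry seeds weighed 100 to 250 mg and were extracted whole, so that library alone contains some seed coat and axis. Seedling cotyledons were collected from soil-sown plants 6 days after imbibition. Each stage is 1 library, with the number of plants behind it not stated in the labels, so stage and preparation cannot be told apart.

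LEC1 is a subunit of the NF-Y family of CCAAT-binding transcription factors, while ABI3 and FUS3 belong to the plant-specific B3-domain family. In Arabidopsis these factors form a mutually reinforcing network that switches on genes for storage proteins and oil, holds the embryo back from germinating and prepares it for drying. There, LEC1 is known for its role from early embryogenesis onward, FUS3 for reserve accumulation and hormone balance, and ABI3 for the response to abscisic acid, desiccation tolerance and dormancy. Also in Arabidopsis, B3-domain repressors of the VAL family, the chromatin remodeller PICKLE and Polycomb complexes keep these genes silent after germination.

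Library totals ranged from 16120894 counts in B1 to 38011608 in AA1. Levels are given as scaled CPM, the count per 1000000 of a library size adjusted by trimmed mean of M-values (TMM), with factors from 0.581 in B1 to 1.51 in the seedling. A count of 3, the floor used here for low levels, corresponded to a scaled CPM of 0.07 for AA1 and for the seedling, 0.13 for dry seed and 0.32 for B1, where low levels are least resolved. Scaled CPM is not corrected for gene length, so it compares a gene model with itself across libraries and not one gene model with another. With library totals in place of TMM factors, every ratio to B1 shifts upward by the same factor, 1.81 for AA1, 1.87 for dry seed and 2.60 for the seedling, so that folds lower than B1 shrink by it.

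The summed levels did not decline alike: LEC1 and FUS3 fell between B1 and dry seed, and ABI3 between dry seed and seedling. Summed over its copies, LEC1 was 23.9-fold lower in late-maturation than in mid-maturation cotyledons, and FUS3 5.40-fold lower. Both were within 8 counts in dry seed. ABI3 had its highest summed level in dry seed and was 45.4-fold lower in seedling cotyledons. All 6 gene models had counts in B1, AA1 and dry seed. In the seedling 4 of 6 had any count, and 2 of 6, both ABI3 copies, had more than 3. Whether a lower level reflects fewer cells expressing a gene or less RNA per cell cannot be told apart in these bulk samples.

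**Figure D1:**
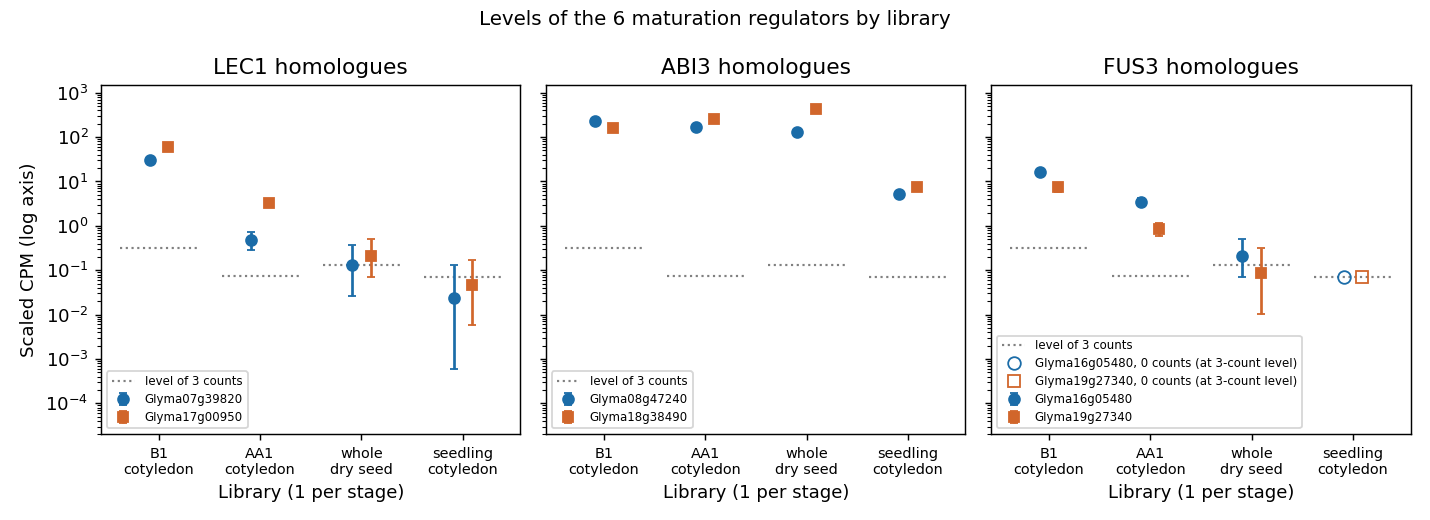
Scaled CPM (log axis) of each of the 6 gene models in the 4 libraries, 1 library per stage, one panel per family. Bars are exact 95% Poisson intervals, dotted lines mark the level of 3 counts, and open symbols stand for 0 counts; LEC1 and FUS3 copies reach the dotted line in dry seed or the seedling, while both ABI3 copies stay above it in every library.

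The LEC1 copies were highest in green mid-maturation cotyledons. Glyma07g39820 had 291, 19, 3 and 1 counts in B1, AA1, dry seed and seedling, which are 31.1, 0.47, 0.13 and 0.02 scaled CPM. Glyma17g00950 had 557, 133, 5 and 2 counts in the same order, or 59.5, 3.32, 0.21 and 0.05 scaled CPM. Both copies therefore stood higher in B1 than in AA1 and higher in AA1 than in dry seed, and in dry seed and seedling both lay near or under the floor. From B1 to AA1 the level of Glyma07g39820 was 65.5-fold lower (interval 41.2 to 110.4) and that of Glyma17g00950 17.9-fold lower (14.8 to 21.8). Of the 29154 gene models compared in this step, 439 went further down than Glyma07g39820, which entered through its B1 level alone. For Glyma17g00950 that number was 1666.

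The further decline of LEC1 after late maturation rests on few counts. Glyma17g00950 was 15.5-fold lower in dry seed than in AA1 (6.46 to 48.4), and 261 of 26397 gene models went further down. Glyma17g00950 entered that comparison through its AA1 level alone, and its dry seed level rests on 5 counts. With a pseudocount of 1 scaled CPM its log2 ratio was -1.83, in place of -3.95. Glyma07g39820, from 19 to 3 counts, was 3.68-fold lower with a wide interval (1.08 to 19.4). Between dry seed and seedling neither copy could be ordered at this depth. Glyma17g00950 was 4.56-fold lower in the seedling with an interval that spans equality (0.75 to 47.9), and Glyma07g39820 had 3 counts or fewer in both. The summed pair, from 8 to 3 counts, was 4.87-fold lower with TMM factors (1.17 to 28.5) and 3.49-fold lower with library totals. With so few counts, no order is given for the sum either. Summed over both copies, LEC1 had 848, 152, 8 and 3 counts, or 90.6, 3.79, 0.34 and 0.07 scaled CPM. The pair was thus 23.9-fold lower in AA1 than in B1 (20.1 to 28.6) and 264-fold lower in dry seed than in B1 (133 to 613).

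The FUS3 copies were also highest in B1, lower in AA1 and lower again in dry seed, with a smaller first step than LEC1. Glyma16g05480 had 151, 141, 5 and 0 counts in B1, AA1, dry seed and seedling, which are 16.1, 3.52, 0.21 and 0 scaled CPM. Glyma19g27340 had 70, 34, 2 and 0 counts, or 7.48, 0.85, 0.09 and 0 scaled CPM. Neither copy gave a single count in the seedling library of 28190429 counts, and the upper end of the exact interval for 0 counts was 0.087 scaled CPM per copy. From B1 to AA1 Glyma16g05480 was 4.58-fold lower (3.62 to 5.81) and Glyma19g27340 8.81-fold lower (5.77 to 13.7). With library totals in place of TMM factors these were 2.52-fold and 4.85-fold, so Glyma16g05480 then falls short of 4-fold.

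The larger FUS3 change for Glyma16g05480 came between the yellow cotyledon and the dry seed. It was 16.4-fold lower in dry seed than in AA1 (6.86 to 51.3), and 210 of 26397 gene models went further down. Glyma16g05480 entered that comparison through its AA1 level alone, and its dry seed level rests on 5 counts. With a pseudocount of 1 scaled CPM its log2 ratios were close, -1.92 from B1 to AA1 and -1.90 from AA1 to dry seed. Glyma19g27340, from 34 to 2 counts, was 9.89-fold lower (2.53 to 84.9). Against B1, the seedling level set at the floor of 3 counts was 229-fold lower for Glyma16g05480 and 106-fold lower for Glyma19g27340. The exact intervals of these ratios, with 0 counts in the seedling, begin at 184-fold and 83.9-fold. From dry seed to seedling Glyma16g05480 went from 5 counts to 0, an interval that begins at 1.67-fold, and no ratio is given for Glyma19g27340, with 2 counts and 0. In scaled CPM, the summed FUS3 level was 23.6 at B1, 4.37 at AA1 and 0.30 in dry seed. The summed level in dry seed was 78.6-fold lower than at B1 (37.5 to 198).

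The ABI3 copies did not share this course. Glyma08g47240 had 2183, 6901, 3093 and 221 counts in B1, AA1, dry seed and seedling, or 233, 172, 133 and 5.20 scaled CPM. Glyma18g38490 had 1489, 10123, 10180 and 312 counts, or 159, 253, 437 and 7.34 scaled CPM. The seedling was the lowest library for both copies. With TMM factors the order of the 3 seed libraries was opposite. Glyma08g47240 was highest in B1 and lowest in dry seed, and Glyma18g38490 was highest in dry seed and lowest in B1. With library totals Glyma08g47240 was highest in AA1 and, within the seed, lowest in B1, so the orders were then not opposite.

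Within the seed the ABI3 changes were small beside those of LEC1 and FUS3. From B1 to AA1 Glyma08g47240 was 1.35-fold lower (1.29 to 1.42) and Glyma18g38490 1.59-fold higher (1.50 to 1.68). From AA1 to dry seed Glyma08g47240 was 1.30-fold lower (1.24 to 1.35) and Glyma18g38490 1.73-fold higher (1.68 to 1.78). The direction for Glyma08g47240 depends on the scaling: with library totals it was 1.34-fold higher in AA1 than in B1 and 1.06-fold higher in dry seed than in B1, while the other 4 scalings kept it lower. Glyma18g38490 was higher in AA1 than in B1 (1.38-fold to 2.88-fold) and higher in dry seed than in B1 (2.07-fold to 5.12-fold) under all 5 other scalings. The higher level of Glyma18g38490 in dry seed coincides with the inclusion of seed coat and axis, and stage and tissue cannot be told apart there.

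After germination both ABI3 copies were far lower. Glyma08g47240 was 25.6-fold lower in the seedling than in dry seed (22.3 to 29.4), and Glyma18g38490 was 59.6-fold lower (53.2 to 66.9). Of 31169 gene models compared, 729 went further down than Glyma08g47240 and 360 further than Glyma18g38490. Between AA1 and the seedling, both of which are cotyledons, the 2 copies were 33.1-fold (29.0 to 38.1) and 34.4-fold (30.8 to 38.7) lower, with overlapping intervals. ABI3 transcripts were still measurable in the seedling, with 533 counts over both copies against 3 for LEC1 and 0 for FUS3. In scaled CPM, the summed ABI3 level was 392 at B1, 425 at AA1, 570 in dry seed and 12.5 in the seedling. The last of these was 45.4-fold lower than dry seed (41.7 to 49.7). For the sum, the step from B1 to AA1 was 1.08-fold higher with TMM factors and 1.04-fold lower with DESeq2 size factors, so no direction is given for it.

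**Figure D2:**
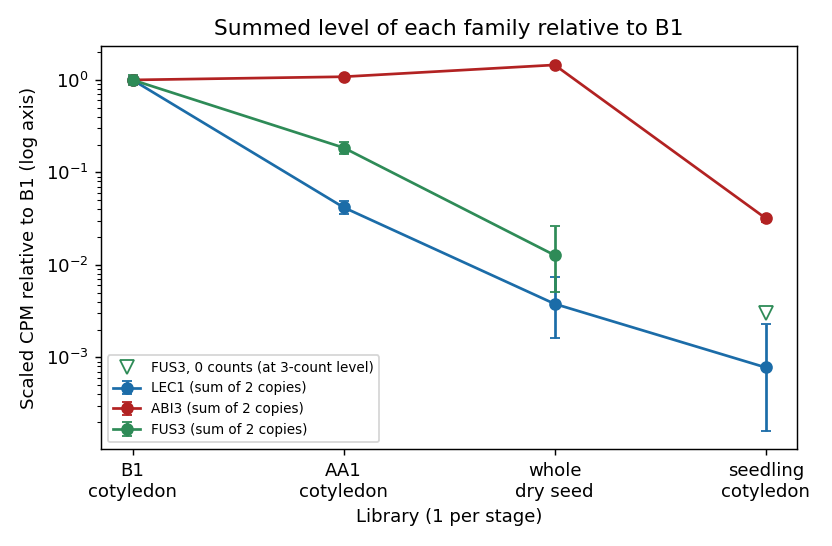
Summed scaled CPM of the 2 copies of each family relative to the B1 library (log axis), 1 library per stage. Bars are the exact 95% Poisson intervals of each library's own count, the open triangle is the level of 3 counts where FUS3 had 0, and the 3 lines part at AA1, where LEC1 stands lowest, FUS3 in between and ABI3 at about its B1 level.

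The balance between families can be followed without any library scaling, since both counts come from the same library. Its change between libraries depends on gene length only as far as the 2 copies of a family differ in length while their shares shift. ABI3 counts per LEC1 count numbered 4.33 at B1, 112 at AA1, 1659 in dry seed and 178 in the seedling. This ratio was 25.9-fold higher at AA1 than at B1 (21.7 to 31.1), and a further 14.8-fold higher in dry seed (7.33 to 34.9). The ratio of ABI3 to FUS3 counts was 16.6 at B1, 97.3 at AA1 and 1896 in dry seed, a change of 5.85-fold (4.76 to 7.20) and then 19.5-fold (9.26 to 49.2). FUS3 gained on LEC1 in the first step: the ratio of FUS3 to LEC1 counts went from 0.26 in B1 to 1.15 in AA1, a 4.41-fold change (3.37 to 5.79). LEC1 thus dropped further than FUS3 between green and yellow cotyledons by more than counting error. In the next step the same ratio changed 0.76-fold with an interval from 0.23 to 2.46, so no difference between LEC1 and FUS3 was detectable from AA1 to dry seed at this depth.

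The 2 copies of a pair did not keep a fixed proportion. This comparison is also free of library scaling. Among LEC1 counts Glyma17g00950 held 65.7% in B1 (62.4% to 68.9%) and 87.5% in AA1 (81.2% to 92.3%). Its ratio to Glyma07g39820 was 3.65-fold higher in AA1 (2.19 to 6.39). In dry seed and seedling the LEC1 pair had 8 and 3 counts, too few to place the share.

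In the ABI3 pair, which has the most counts, the majority passed from one copy to the other during maturation. Glyma18g38490 held 40.5% of the ABI3 counts at B1 (interval 39.0% to 42.2%) and 59.5% at AA1 (58.7% to 60.2%). Its share was 76.7% in dry seed (76.0% to 77.4%) and 58.5% in the seedling (54.2% to 62.8%). Its ratio to Glyma08g47240 was 2.15-fold higher at AA1 than at B1 (2.0 to 2.31) and 2.24-fold higher in dry seed than at AA1 (2.13 to 2.36). In the seedling cotyledon the ratio was 0.96 of that in the late-maturation cotyledon (0.81 to 1.15), an interval that includes equality. Dry seed, the library with seed coat and axis, was thus the one with the highest share of Glyma18g38490. The part of that tissue in the share was not tested.

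Among FUS3 counts Glyma16g05480 was the more counted copy, with 68.3% in B1 (61.8% to 74.4%) and 80.6% in AA1 (73.9% to 86.2%). The ratio of Glyma16g05480 to Glyma19g27340 was 1.92-fold higher in AA1 (1.18 to 3.18). Dry seed had 7 FUS3 counts and the seedling 0, so the proportion could not be followed further. In each of the 3 pairs the proportion therefore differed between B1 and AA1 by more than counting error. A share within a library still depends on the lengths of the copies and on how reads that fit both copies were counted, which is not given in the sources used here.

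**Figure D3:**
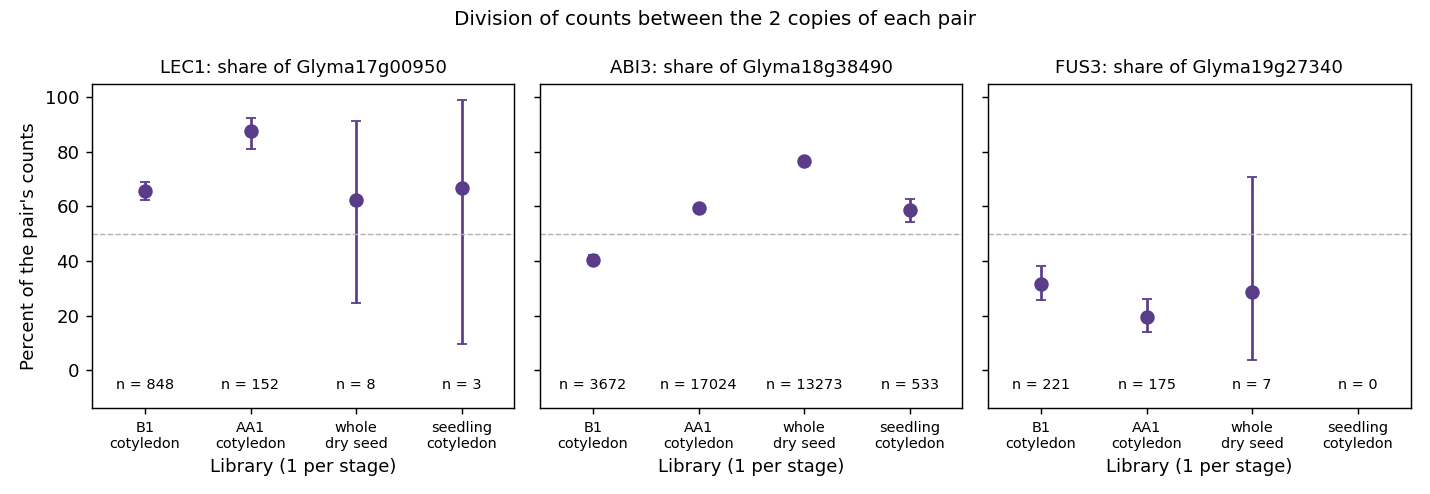
Percent of a pair's counts that belong to the second copy, by library (1 per stage), with exact 95% Clopper-Pearson intervals and the number of counts of the pair below each point. The share of Glyma17g00950 goes from 65.7% in B1 to 87.5% in AA1, and the share of Glyma18g38490 from 40.5% in B1 to 76.7% in dry seed and 58.5% in the seedling.

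In none of the 6 pairs of libraries was a member at least 4-fold higher in the later stage, apart from Glyma18g38490 in dry seed against B1 when library totals were used. Each comparison took gene models that reached 1 scaled CPM in one of the libraries or in both, and counted those whose scaled CPM differed by a factor of 4 or more. From B1 to AA1, where all 6 entered, 4 of 6 members were lower by this rule (both LEC1 and both FUS3 copies), against 16.6% of 29154 gene models, and 0 of 6 were higher, against 13.2%. Glyma07g39820 and Glyma19g27340 entered through B1 alone, where they are high, so for them the call adds nothing to the levels given above. With library totals, with a pseudocount of 1 scaled CPM, or when the interval bound had to be 4-fold away, the number lower was 3, without Glyma16g05480. The median of the 6 log2 ratios was -2.67, beside 0.19 over all gene models compared.

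From AA1 to dry seed, 4 of 6 members had enough signal to enter the comparison, and 2 of them (Glyma17g00950 and Glyma16g05480) were at least 4-fold lower, against 9.75% of 26397 gene models. Both entered through their level in AA1. The other LEC1 and FUS3 copies were under 1 scaled CPM in both libraries. No member was higher, against 5.96% of all. From dry seed to seedling the 2 ABI3 copies alone entered, and both were at least 4-fold lower, against 15.7% of 31169 gene models, while 31.5% of all were higher. The LEC1 and FUS3 copies had already reached 5 counts or fewer in dry seed and were not compared there.

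From B1 to dry seed 4 of 6 members, the LEC1 and FUS3 copies, which entered through B1 alone, were at least 4-fold lower, against 24.1% of 29063 gene models, and 0 were higher, against 20.1%.

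Across the whole span from B1 to the seedling, 6 of 6 members were at least 4-fold lower, against 11.8% of 31753 gene models, and 22.5% of all were higher. The LEC1 and FUS3 copies entered through B1 alone, where they are high, so for these 4 the count adds nothing to the levels given above. The median of the 6 log2 ratios was -7.28, with counts under 3 set to 3, beside 0.43 over all gene models compared. Its middle values were those of the FUS3 copies, with 0 counts in the seedling, so this median rests on the floor. The smallest of the 6 drops was that of Glyma18g38490, at 21.7-fold (19.2 to 24.6), and 1042 gene models went further down than it did. Glyma08g47240 was 44.9-fold lower (39.1 to 51.7). For the LEC1 copies, with 1 and 2 counts left, the ratios were 1322-fold (235 to 52378) for Glyma07g39820 and 1265-fold (348 to 10470) for Glyma17g00950. With counts under 3 set to 3, Glyma17g00950 was 843-fold lower, and 114 of the 31753 gene models compared went further down. That rank follows from its B1 level and the floor, so it adds nothing to the levels either. From AA1 to the seedling 4 members entered, Glyma17g00950 and Glyma16g05480 through their AA1 level alone, and the 4 were at least 4-fold lower, against 10.7% of 31121 gene models, while 24.8% of all were higher. The other 2 were under 1 scaled CPM in both: Glyma07g39820, from 19 counts to 1, was 20.2-fold lower (3.21 to 838), and for Glyma19g27340, from 34 counts to 0, the interval begins at 9.26-fold.

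**Figure D4:**
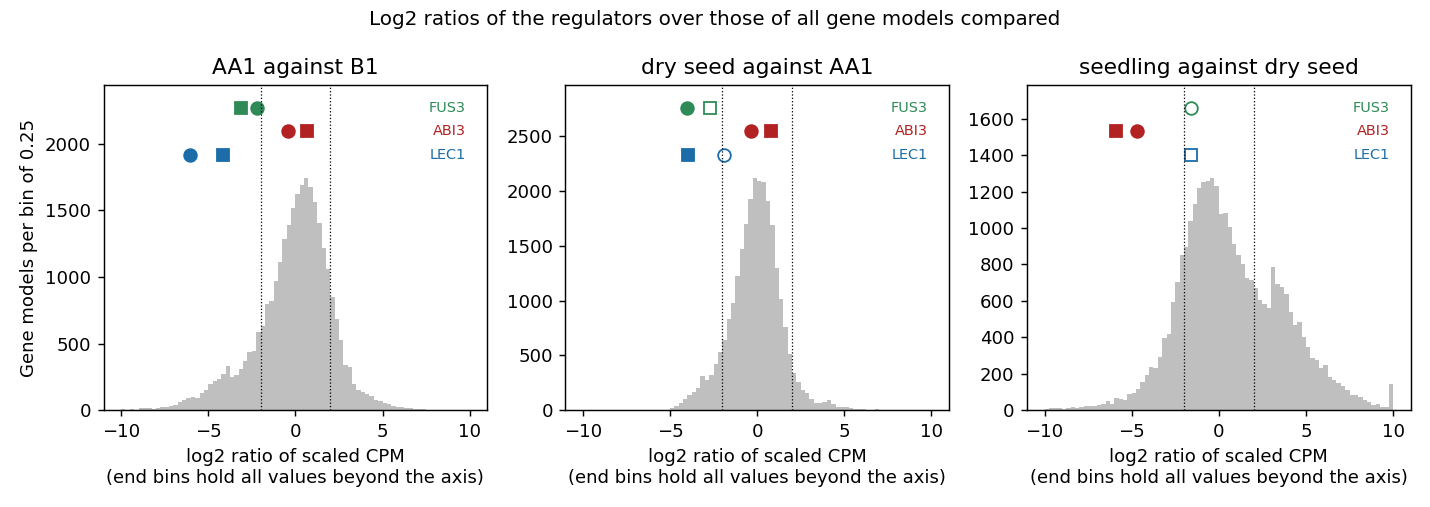
Log2 ratios of scaled CPM in the 3 consecutive steps: grey bars count all gene models compared, and symbols above them give the members, with circles for Glyma07g39820, Glyma08g47240 and Glyma16g05480, squares for their partners, and open symbols for members under 1 scaled CPM in both libraries. Dotted lines mark 4-fold; LEC1 and FUS3 lie left of the line in the first step and ABI3 in the last, and members with 3 counts or fewer in both libraries are not drawn.

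The stage profiles of the members were also compared with those of 24335 gene models that reached 5 scaled CPM in some library. Each profile was the log2 scaled CPM in the 4 libraries, centred on its mean, with counts under 3 set to 3. The gene models within 1 log2 unit of a member in every library numbered 33 for Glyma07g39820, 12 for Glyma17g00950 and 76 for Glyma08g47240. They numbered 90 for Glyma18g38490, 15 for Glyma16g05480 and 53 for Glyma19g27340. Such numbers were not taken for other gene models, so these are not called few or many. For the LEC1 and FUS3 copies they depend on the floor: with log2(scaled CPM + 1) they were 219, 79, 332 and 1289, in identifier order within LEC1 and then FUS3. The other copy of a pair was not the nearest profile in any of the 3 pairs. With the other gene models ranked by root mean square distance, Glyma17g00950 had rank 98 from Glyma07g39820, Glyma18g38490 rank 134 from Glyma08g47240, and Glyma19g27340 rank 24 from Glyma16g05480.

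The profile nearest to the ABI3 sum was that of Glyma10g08370, at a distance of 0.11 log2 units over the 4 libraries. Its scaled CPM was 62.3, 78.9, 102 and 1.93, from B1 to the seedling. The profile nearest to the FUS3 sum was that of Glyma18g08520, at a distance of 0.22, with 18.3, 4.89, 0.34 and 0 scaled CPM. The count files do not pair these identifiers with names. A likeness over 4 libraries is a description of these libraries.

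The neighbours of the members along the chromosome were counted by the same 4-fold rule, and their profiles were not compared. Of the 60 gene models that lie within 5 places of a member in identifier order, 30 entered the comparison of AA1 with B1, and 7 of these were at least 4-fold lower and 3 at least 4-fold higher. That is 23.3% lower and 10% higher, beside 16.6% and 13.2% over all gene models. From B1 to the seedling, 4 of 30 neighbours were lower and 7 higher, or 13.3% and 23.3%, beside 11.8% and 22.5% over all. Around the ABI3 copies, from dry seed to seedling, 0 of 2 neighbours of Glyma08g47240 and 0 of 4 of Glyma18g38490 were lower, and 3 of the latter were higher. Over all gene models of that step 15.7% were lower and 31.5% higher, and these neighbours are too few to set apart from that.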

How the data were processed

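Polyadenylated RNA of 4 soybean samples was amplified for 15 PCR cycles and sequenced as single 76 bp reads (Illumina), per the labels' protocols. The deposited files hold raw counts of mapped reads per gene model with no normalization, per the file headers. The submitters' processing notes name Bowtie, without a version. The sources used here do not give the build, the counting program or the handling of reads with several mapping places. The libraries do not mark strand, so reads of an overlapping antisense gene would be counted with a member.

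Library sizes were scaled with TMM factors (trimmed mean of M-values, edgeR 4.0.16 in R 4.3.3) over the 4 libraries, and scaled CPM is the count per 1000000 of the scaled size. For the size rule of 4-fold, counts under 3 were set to 3 and at least 1 scaled CPM in either library was required. The rule was tested on simulated counts with counting error only, with changes placed in gene models well above the entry level. That test does not cover low levels. Intervals are exact 95% intervals: Poisson for a level, binomial for a ratio, Clopper-Pearson for a share, and conditional exact for a change of a ratio (scipy 1.17.1). All intervals and the floor of 3 counts cover counting error only, and reads carry no molecular identifiers. With 1 library per stage there is no test across samples.

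The members, their family names and the rules were chosen with earlier results of these data known. All 6 members are named, plus the 2 gene models closest in profile to a family sum. None of the 66210 identifiers matched the 59048 genes of the Glycine_max_v4.0 table, so the lists of maturation target genes and of seed coat and axis markers could not be applied. Alternatives were 5 other scalings (DESeq2 1.42.0 size factors among them), a pseudocount, thinning, an interval rule and other entry filters.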

Additional observations from a re-analysis of the deposited data

How the results depend on the processing

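Every log2 ratio of a member or family sum with more than 3 counts in either library was recomputed under the alternatives. Of 52 ratios, 3 changed sign under some alternative, all among ABI3 within the seed, and no ratio of 4-fold or more did. Library totals moved the median of all gene models for AA1 against B1 from 0.19 to 1.15 on the log2 scale, and for seedling against B1 from 0.43 to 1.89. With totals, 1 member (Glyma18g38490) was at least 4-fold higher in dry seed than in B1, against 0 with TMM factors. From AA1 to dry seed, 0 members were at least 4-fold lower, in place of 2, with a pseudocount of 1 scaled CPM and with an entry filter of 5 scaled CPM. That filter also left 2 in place of 4 for seedling against AA1. A stricter filter lets fewer low members enter, and a pseudocount of 1 scaled CPM draws the ratios of low levels toward equality. For AA1 against B1 the number lower was 3, without Glyma16g05480, with totals, the pseudocount or the interval rule, and 4 otherwise. The number of members lower from B1 to seedling was 6 under every alternative. Copy shares after thinning stayed within their intervals.

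The number of gene models close to a member in profile moved most. With an entry of 20 scaled CPM it was 47 for Glyma08g47240, 6 for Glyma16g05480 and 20 for Glyma19g27340. With log2(scaled CPM + 1) it was 219 for Glyma07g39820, 79 for Glyma17g00950, 49 for Glyma18g38490, 332 for Glyma16g05480 and 1289 for Glyma19g27340. Adding 1 flattens differences among levels under 1 scaled CPM, where the LEC1 and FUS3 copies stood in dry seed and seedling. The part of this in each number was not tested. The background share of gene models at least 4-fold lower ranged from 8.53% to 18.7% for AA1 against B1, from 2.7% to 11.8% for dry seed against AA1 and from 10.5% to 18.6% for seedling against dry seed. No paired analysis was possible because each stage has 1 library, and no library could be left out for the same reason. Depth limits LEC1 and FUS3 in dry seed and seedling, where counts were 8 or fewer per pair.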
